A study of Camelus dromedarius with 30 samples.

Results

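LRATD1 (LRAT domain containing 1) is 1 of the 22444 genes counted in the kidney of the dromedary camel (Camelus dromedarius), and its level was followed here through all 30 libraries. It was selected on its measured counts, because its values in rehydrated camels lay above those of control camels in both the cortex and the medulla, so the differences between these conditions describe the choice and are given without a test. The 30 libraries came from 15 male camels aged 4 to 5 years, with cortex and medulla sampled from every animal and 5 animals in each of 3 conditions. Control camels drank freely throughout, dehydrated camels went without water for 20 days, and rehydrated camels went without water for 20 days and then drank freely for 3 days. All camels were fed alfalfa hay, had food available throughout and were of no stated breed or genotype. Each library was made from poly(A)-selected RNA of a powdered piece of whole tissue, so more cells that express a gene and more RNA per cell cannot be told apart. The replicates of a group are separate camels.

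LRATD1 encodes a protein of the LRAT-like family, which was formerly listed as FAM84A. The family takes its name from lecithin retinol acyltransferase (LRAT), the enzyme that stores vitamin A as retinyl esters, and also holds the PLAAT phospholipases and acyltransferases. The enzymatic activity of LRATD1 itself and its role in the kidney are not well established. The renal cortex holds the glomeruli and most proximal tubules, whereas the medulla holds the loops of Henle and collecting ducts that concentrate the urine.

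The gene carries the identifier ENSCDRG00005004252 and lies on the plus strand of chromosome 15 in the CamDro2 assembly, at chr15:9518967-9519845. The annotation gives it a single exon of 879 bases, a length of exactly 293 codons. The table lists no other exon, and pairs that fell outside this stretch were not counted on LRATD1. The gene passed the filter on low counts with 15375 others. In the whole table, 49.7% of gene models had lengths divisible by 3.

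The libraries held 12634346 to 20005136 counted read pairs, with 12634346 to 19785428 in the cortex and 15780491 to 20005136 in the medulla. Levels are given in CPM, the pairs counted on a gene scaled to a library of 1000000 pairs, with library sizes adjusted by the TMM method. The summed level of 3 measured thick ascending limb markers (UMOD, EGF and CLDN10) was 4144 to 9003 CPM in cortex libraries and 13570 to 24120 CPM in medulla libraries, without overlap. Of the distal convoluted tubule markers, 3 of 5 were measured and gave 565.9 to 2519 CPM in the cortex and 74.79 to 503.1 CPM in the medulla. The 4 measured proximal tubule markers of 12 listed gave 845.6 to 5227 CPM in the cortex and 41.41 to 935.5 CPM in the medulla, with an overlap. The podocyte marker SYNPO (1 of 6 measured) went against the place of the glomeruli, at 0.685 to 7.74 CPM in the cortex and 6.26 to 23.3 CPM in the medulla. The principal cell markers (3 of 8) gave 459.8 to 817.4 CPM in the cortex and 329.2 to 1182 CPM in the medulla, with an overlap. No marker that was measured was at 0 in every library, and none of the urothelial and immune cell markers carried a symbol. Cortex control replicate 3 stood apart: 14199 genes had at least 1 pair there, against 14848 to 17514 in the other 29 libraries, and its level was the lowest of the 15 cortex libraries for 19.0% of tested genes. Differences that rest on this library are given with and without it.

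LRATD1 was lowest in the cortex of control camels and highest in the medulla of rehydrated camels. In control cortex, 29, 14, 0, 7 and 14 pairs were counted in replicates 1 to 5, which correspond to 2.47, 1.02, 0.00, 0.610 and 1.30 CPM. The count of 0 in replicate 3 had a 95% interval that reached 3.69 counts (counting error only). A level of 3 counts in that library corresponds to 0.296 CPM. In dehydrated cortex, 32, 19, 90, 28 and 86 pairs were counted, or 2.44, 1.73, 5.10, 2.40 and 5.41 CPM. Replicates 3 and 5 lay above every control library and the other 3 lay within the control range. In rehydrated cortex, 33, 121, 96, 116 and 175 pairs were counted, or 2.52, 9.44, 8.41, 8.16 and 12.5 CPM. Replicates 2 to 5 lay above all control and dehydrated cortex libraries, and replicate 1 lay just above the control maximum of 2.47 CPM and within the dehydrated range.

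In control medulla, LRATD1 was counted 128, 248, 111, 157 and 211 times, or at 6.12, 10.2, 6.18, 7.74 and 8.81 CPM. In dehydrated medulla, 202, 254, 209, 271 and 175 pairs gave 9.28, 10.4, 8.92, 10.7 and 7.51 CPM, a range that overlapped with control. In rehydrated medulla, 672, 396, 380, 269 and 549 pairs gave 28.6, 15.5, 23.0, 14.6 and 21.8 CPM. All 5 rehydrated libraries lay above all 10 control and dehydrated libraries of the medulla.

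**Figure D1:**
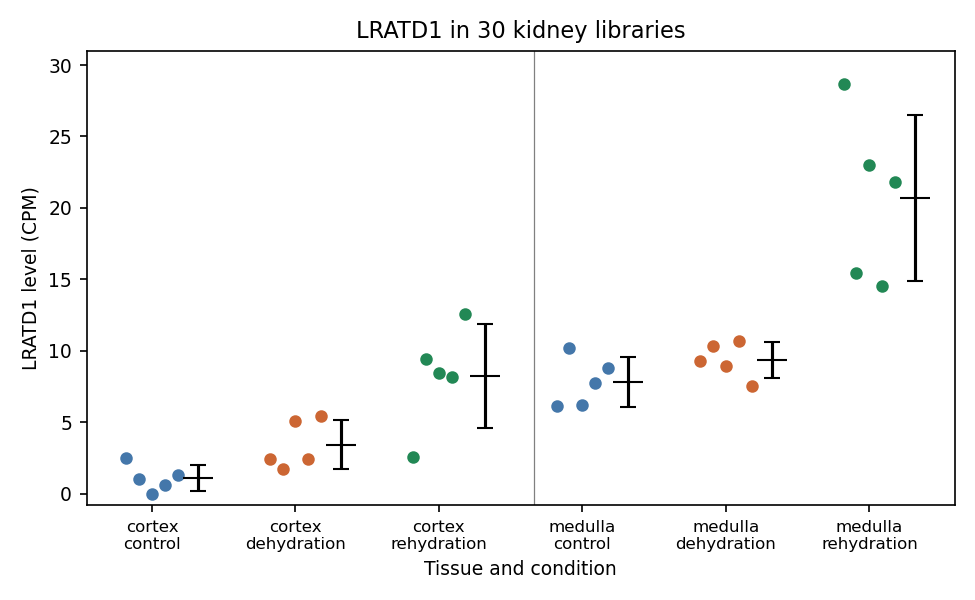
Level of LRATD1 in CPM (vertical axis) for each of the 30 libraries (points), by tissue and condition (horizontal axis), with the group mean and SD (bars, n = 5). The rehydrated medulla libraries sit between 14.6 and 28.6 CPM, above every other library, and the control cortex libraries sit between 0.00 and 2.47 CPM.

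In ascending order, the group means were 1.08 ± 0.917 CPM in control cortex, 3.42 ± 1.71 CPM in dehydrated cortex, 7.81 ± 1.75 CPM in control medulla, 8.21 ± 3.63 CPM in rehydrated cortex, 9.34 ± 1.25 CPM in dehydrated medulla and 20.7 ± 5.80 CPM in rehydrated medulla (SD, n = 5 each). Control and dehydrated cortex overlapped, as did control medulla with rehydrated cortex and rehydrated cortex with dehydrated medulla. Dehydrated cortex and control medulla did not overlap, nor did dehydrated and rehydrated medulla. After rehydration, the cortex mean thus lay within the range of the control medulla (6.12 to 10.2 CPM). Its libraries ran from 2.52 to 12.5 CPM, beyond that range on both sides. The order of the means of these groups reversed with other scalings. Without replicate 3, the control cortex mean was 1.35 ± 0.797 CPM (SD, n = 4).

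Per length, control cortex held LRATD1 at 1.23 RPKM (CPM per kilobase of counted length), which was at or above 24.5% of the 15376 tested genes (1.53 RPKM and 27.1% without replicate 3). The rehydrated medulla held it at 23.5 RPKM, at or above 77.8% of tested genes. The other groups ranged from 3.89 RPKM in dehydrated cortex to 10.6 RPKM in dehydrated medulla. The fitted biological coefficient of variation of LRATD1 was 41.2%, against 37.4% for genes at its mean level and a median of 29.9% over all tested genes.

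LRATD1 was higher in medulla than in cortex under every condition, and the values of the tissues did not overlap in any of them. The libraries of dehydrated camels did not enter the choice of the gene, so their tissue difference was tested, and those of control and rehydrated camels are given as descriptions. In dehydrated camels, the medulla exceeded the cortex 2.64-fold (log2 fold change 1.40, SE 0.350, p_adj = 0.00103, quasi-likelihood test in edgeR, adjusted over 15376 genes by Benjamini-Hochberg). Such calls were common, as 65.4% of tested genes differed between the tissues of dehydrated camels, 34.4% were called higher in the medulla and 28% had medulla values wholly above the cortex. The RNA integrity values in the paper's supplement were lower on average in cortex than in medulla in every condition. In dehydrated camels they did not overlap between the tissues. The part of RNA quality in the tissue difference was not tested. Within the 5 dehydrated camels, the mean difference was 1.55 in log2 CPM and the medulla was higher in 5 of 5 (exact permutation within camels, two-sided p = 0.0625, the smallest that 32 arrangements allow). The separation of the tissues fixed that count and p under any pairing, so they add nothing to it.

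In control camels, the medulla exceeded the cortex 7.09-fold (log2 fold change 2.83, SE 0.435), and 22.7% of tested genes were wholly higher in the medulla there. Without cortex control replicate 3, this difference was 2.54 on the log2 scale (SE 0.420). In rehydrated camels, the excess was 2.51-fold (log2 fold change 1.33, SE 0.321), with 14.6% of genes wholly higher in the medulla.

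The labels of the count columns end in a letter N for 17 libraries and R for 1 library, without a stated meaning, and 12 of the 17 were medulla libraries. Among rehydrated libraries marked N, LRATD1 was at 2.52 to 9.44 CPM in 3 cortex libraries and at 14.6 to 28.6 CPM in 4 medulla libraries. Among those without a letter, it was at 8.16 and 12.5 CPM in the cortex and at 23.0 CPM in the single medulla library. Among dehydrated libraries marked N, the cortex library was at 2.40 CPM and the 4 medulla libraries at 7.51 to 10.7 CPM. In control camels, no medulla library was without a letter and the only cortex library marked N was replicate 3, at 0.00 CPM, so the tissues could not be compared there within columns without a letter. The part of the letter in the tissue difference was not tested.

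Within camels, as the labels pair them, LRATD1 was higher in the medulla in 15 of 15 animals. Any pairing within a condition would give this count, because the values of the tissues did not overlap. The ratio of medulla to cortex was 2.48 to 12.7 in the 4 control camels with a count above 0 in the cortex, 1.39 to 5.99 in dehydrated camels and 1.64 to 11.4 in rehydrated camels. The ratio of 11.4 came from rehydrated camel R1, whose cortex held the lowest and whose medulla held the highest level of its group. The other 4 rehydrated camels had ratios of 2.74 or less. No relation between the cortex and medulla levels of a camel passed the test. Across the 10 control and dehydrated camels, deviations of log2 CPM from the group means gave Pearson's r = 0.078 (exact permutation p = 0.905, p_adj = 0.905) and Spearman's rho = -0.115 (exact permutation p = 0.796, p_adj = 0.905), two-sided, with 2 measures in the family. Without the 2 camels farthest from the median in the cortex, r was -0.215. Both tissues deviated in the same direction in 3 of the 10 camels.

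**Figure D2:**
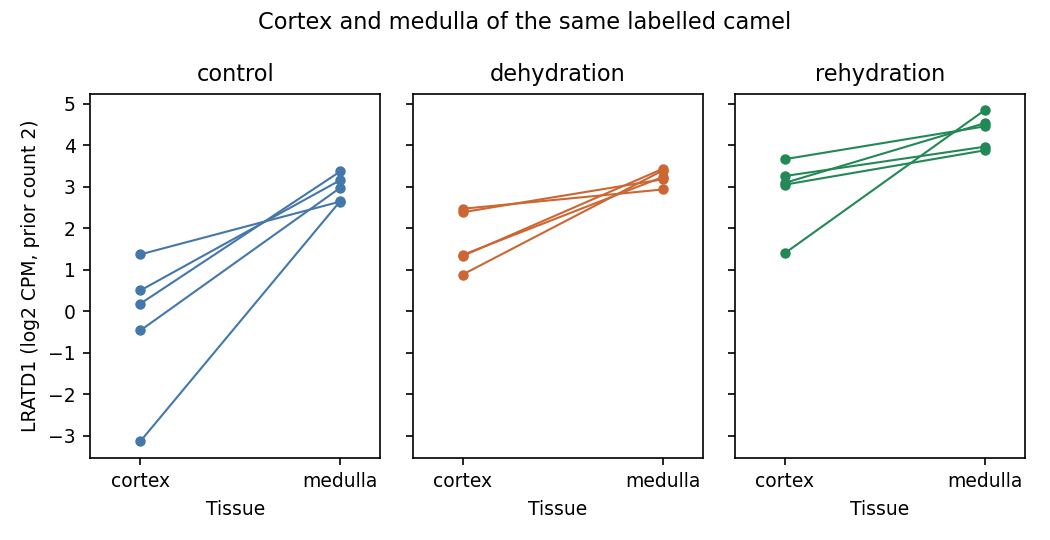
Log2 CPM of LRATD1 (vertical axis, prior count 2) in cortex and medulla (horizontal axis), with a line for each of the 15 camels as labelled, by condition. Every line rises from cortex to medulla, as it would under any pairing, and the cortex values spread more widely than the medulla values in each panel.

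The pairing of rehydrated camels is uncertain, which is why they were left out of that relation. The cortex columns of the rehydrated camels labelled 1 to 5 carry the numbers 2 to 6 and the medulla columns the numbers 1 to 5. Over all tested genes, deviations from the group means correlated between the tissues of the same labelled camel at a mean of 0.139 in control, 0.093 in dehydrated and 0.049 in rehydrated camels. When the 4 rehydrated pairs that share a column number were used instead, the mean correlation was 0.351. The ratio for rehydrated camel R1 therefore depends on a pairing that the column names do not share.

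The differences between conditions are descriptions, because they chose the gene or use the libraries that chose it. From control to rehydration, LRATD1 was 7.44-fold higher in the cortex (log2 fold change 2.90, SE 0.443) and 2.64-fold higher in the medulla (log2 fold change 1.40, SE 0.313). In the cortex, the groups were separated narrowly, with a lowest rehydrated value of 2.52 CPM and a highest control value of 2.47 CPM, and in the medulla by 14.6 against 10.2 CPM. Rehydrated values lay wholly above control for 0.364% of tested genes in the cortex, for 1.82% in the medulla and for 0.026% (4 genes, LRATD1 included) in both. The fitted change ranked 55 from the top among 15376 genes in the cortex and 149 in the medulla. Without cortex control replicate 3, the change in the cortex was 2.61 on the log2 scale (SE 0.426).

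In both tissues, the mean of the dehydrated camels lay between those of the control and the rehydrated camels. From control to dehydration, the log2 fold change was 1.68 (SE 0.476) in the cortex and 0.25 (SE 0.316) in the medulla. In the cortex, 2 of 5 dehydrated libraries lay above the control maximum, and wholly higher values were found for 3.17% of tested genes in this comparison, LRATD1 not among them. Without cortex control replicate 3, the cortex value was 1.39 (SE 0.452). From dehydration to rehydration, the log2 fold change was 1.22 (SE 0.362) in the cortex, where 4 of 5 rehydrated libraries exceeded the dehydrated maximum, and 1.15 (SE 0.308) in the medulla, where all 5 did. Wholly higher values in that comparison were found for 1.54% of genes in the cortex and 2.43% in the medulla.

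**Figure D3:**
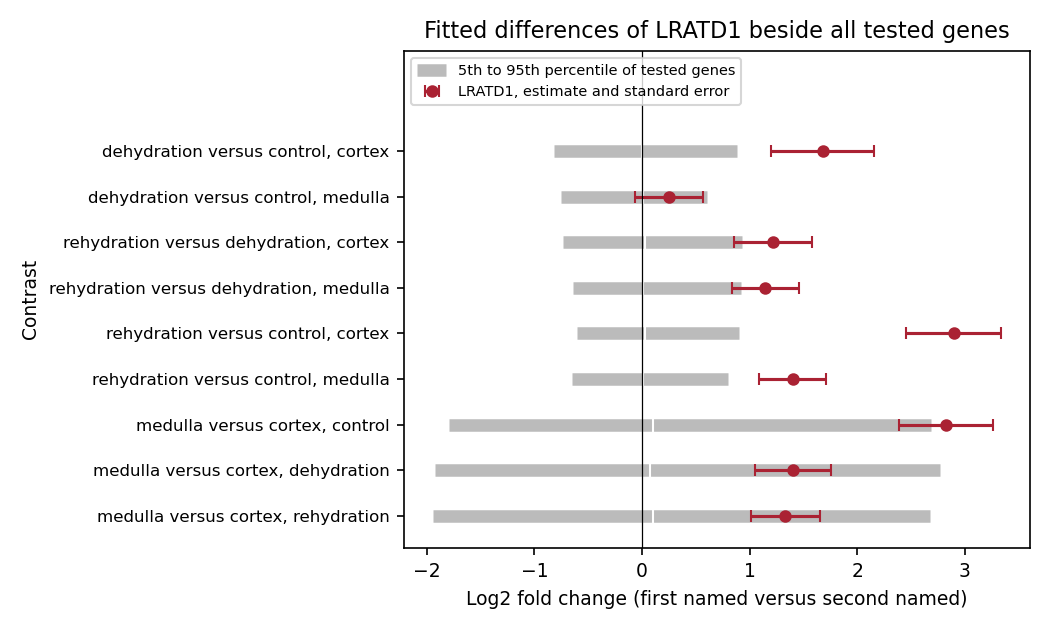
Fitted log2 fold change of LRATD1 (points) with its standard error (bars) for 9 contrasts, beside the 5th to 95th percentile of the 15376 tested genes (grey) and their median (white tick). For rehydration versus control, LRATD1 lies at 2.90 in the cortex and 1.40 in the medulla, where the 95th percentiles are 0.90 and 0.80, and the tissue differences in dehydrated and rehydrated camels lie inside the grey range.

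The responses of the tissues were compared without a test, since control libraries enter each of them. For dehydration against control, the response in the medulla minus that in the cortex was -1.43 on the log2 scale (SE 0.577), and -1.14 (SE 0.542) without cortex control replicate 3. For rehydration against control, the same difference was -1.50 (SE 0.555), and -1.21 (SE 0.524) without that library.

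Marker sums of some cell types did not overlap between conditions, and their part in the LRATD1 values was not tested. Among single tested genes, 3.17% were wholly higher in dehydrated than in control cortex, and 0.364% in rehydrated than in control cortex. Shares of genes wholly lower are not given, so the falls have no such measure beside them. Between control and rehydrated cortex, the summed level of the 3 measured of 8 principal cell markers (AQP2, AQP3 and HSD11B2) was 643.5 to 817.4 CPM and 487.3 to 638.5 CPM. These ranges were separated only narrowly, in the opposite direction to LRATD1. None of the 3 markers was called on its own in that comparison, where 0.0845% of all genes were called. The 8 other marker lists with a measured member overlapped between control and rehydrated cortex, and all 9 overlapped in the medulla. Between control and dehydrated cortex, the proximal tubule markers were at 2015 to 4427 and 845.6 to 1566 CPM, the endothelial markers (3 of 7 measured) at 218.9 to 268.8 and 356.4 to 423.5 CPM, and the intercalated cell marker ATP6V1B1 (1 of 6) at 348.7 to 435.5 and 266.6 to 323.7 CPM. The injured tubule markers VCAM1, CLU and VIM (3 of 8) were at 2905 to 4224 and 4229 to 5384 CPM in the same groups, again separated only narrowly. As single genes, 1 of the 3 endothelial markers was called higher in dehydrated than in control cortex. None of the proximal tubule, intercalated cell or injured tubule markers was called there, where 2.45% of all genes were called.

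From dehydrated to rehydrated cortex, the proximal tubule markers were at 845.6 to 1566 and 3419 to 5227 CPM, without overlap and in the same direction as LRATD1. Among single tested genes, 1.54% were wholly higher in that comparison. The endothelial and injured tubule markers were lower in the rehydrated cortex, at 215.4 to 276.4 and 3324 to 4150 CPM, without overlap with the dehydrated libraries. As single genes, 2 of 4 proximal tubule markers were called higher and 1 of 3 endothelial markers lower. No injured tubule marker was called in that comparison, where 2.32% of all genes were called. In the medulla, ATP6V1B1 was the only listed marker sum without overlap between neighbouring conditions. It was at 219.5 to 288.2 CPM in control, 109.5 to 167.9 CPM in dehydrated and 168.4 to 379.1 CPM in rehydrated camels. Like LRATD1 it was higher after rehydration than after dehydration, but by a narrow separation, and 2.43% of tested genes were wholly higher there. The number of genes with at least 1 pair ranged from 14199 to 16497 in control cortex and from 14848 to 16487 in rehydrated cortex.

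The genes nearest to LRATD1 changed less between control and rehydration than it did. LRATD1 was chosen for that change and few genes were called there, so smaller changes nearby say nothing particular about the locus. On chromosome 15 of CamDro2, the 5 nearest tested genes on each side lay 400.1 to 2232 kb away, so LRATD1 had no tested gene within that distance on either side. None of these 10 genes was called for rehydration against control, where 0.0845% of tested genes were called in the cortex and 0.813% in the medulla. Their log2 fold changes ran from -0.19 to 0.52 (median 0.05) in the cortex and from -0.61 to 0.30 (median 0.10) in the medulla, around medians over all genes of 0.02 and 0.01. None was called for dehydration against control, where 2.45% of genes were called in the cortex and 1.68% in the medulla. The sole call among them was ENSCDRG00005004212, 445.7 kb away, which fell by 0.67 on the log2 scale from dehydrated to rehydrated cortex (SE 0.166, p_adj = 0.0266 in edgeR), where 2.32% of genes were called. In the medulla none was called in that comparison, against 3.67% of genes. The only neighbour with a symbol was CYRIA, a regulator of the actin cytoskeleton that binds RAC1. For rehydration against control, CYRIA had the lowest log2 fold changes of the 10, at -0.19 (SE 0.398) in the cortex and -0.61 (SE 0.294) in the medulla.

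**Figure D4:**
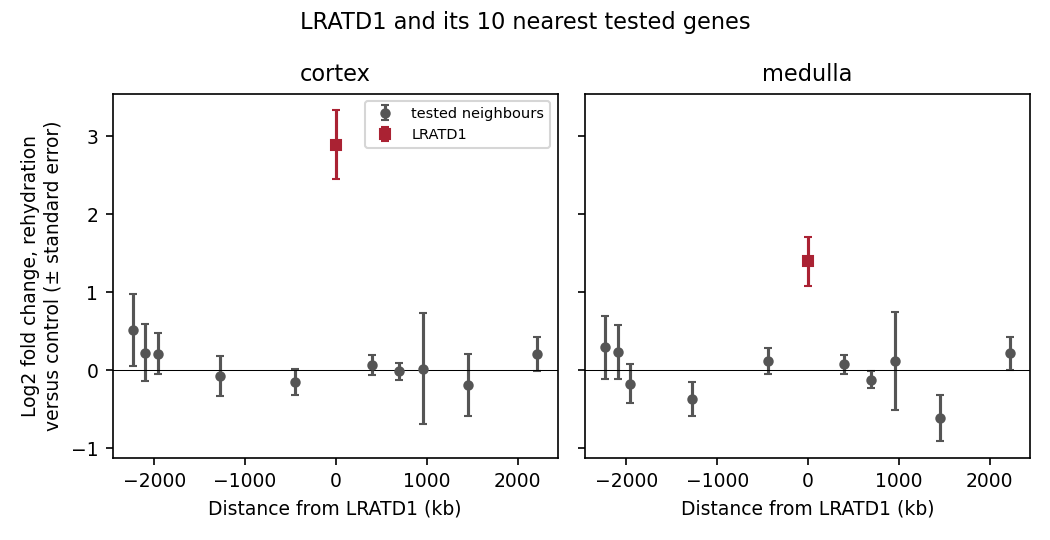
Log2 fold change of rehydration versus control with its standard error (vertical axis) for LRATD1 (square) and its 10 nearest tested genes (circles), by distance from LRATD1 in kb (horizontal axis), in cortex and medulla. The neighbours lie between -0.61 and 0.52, and LRATD1, which was chosen for this change, lies at 2.90 and 1.40.

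Of the 6 listed genes of the LRAT-like family, only LRATD1 could be paired with an identifier, so the levels of LRAT, LRATD2 and the PLAAT genes are not given. Of 24 listed genes that carry, store, cleave or sense retinoids, 9 were paired and all 9 were tested. None of the 9 was called for rehydration against control, where 0.0845% of all genes were called in the cortex and 0.813% in the medulla. At these shares, no call among 9 genes says little about retinoid genes. Their median log2 fold changes were 0.12 in the cortex and -0.28 in the medulla, around medians over all genes of 0.02 and 0.01. For dehydration against control in the cortex, 2 were called, both lower, beside the 2.45% called over all genes. RETSAT, which saturates retinol, fell by 0.68 on the log2 scale (SE 0.182, p_adj = 0.0404 in edgeR), and BCO2, which cleaves carotenoids, fell by 1.39 (SE 0.233, p_adj = 0.00137 in edgeR). RETSAT rose again from dehydration to rehydration in the cortex, from 324.9 to 565.5 CPM (log2 fold change 0.80, SE 0.183, p_adj = 0.0175 in edgeR), where 2.32% of all genes were called.

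In the medulla, the only retinoid gene called was the retinoid receptor gene RXRG, which fell by 1.86 from control to dehydration (SE 0.495, p_adj = 0.0391 in edgeR), where 1.68% of all genes were called. Its level was low, with a mean of 0.434 CPM over all libraries. The 6 other paired genes had no call between conditions, where 0.0845% to 3.67% of all genes were called, depending on the comparison. They were RBP4 and TTR, which carry retinol in the blood, BCO1, which cleaves beta-carotene, ALDH1A2 and ALDH1A3, which make retinoic acid, and the receptor gene RXRA. Between the tissues of control camels, 8 of the 9 were called, RXRA being the exception, beside 60.9% of all genes. ALDH1A2 and ALDH1A3 were higher in the medulla, as LRATD1 was, by log2 fold changes of 1.74 (SE 0.158, p_adj = 1.55e-09 in edgeR) and 2.74 (SE 0.257, p_adj = 2.53e-09 in edgeR). TTR and RXRG were also higher there, with log2 fold changes of 3.44 (SE 0.839) and 1.54 (SE 0.573). RBP4, RETSAT, BCO1 and BCO2 were lower in the medulla, with log2 fold changes of -3.09, -1.81, -2.82 and -2.08. In dehydrated camels, TTR and RXRG were not called between the tissues, at 0.18 (SE 0.714) and -0.50 (SE 0.655). There, 65.4% of all genes were called. ALDH1A2 and ALDH1A3 were higher in the medulla of dehydrated camels also, at 1.48 (SE 0.157) and 2.97 (SE 0.260).

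Genes with levels most like LRATD1 were ranked by Pearson correlation of log2 CPM across the 30 libraries, first after the mean of each tissue was removed. Among the 3725 genes with a symbol and a mean of at least 1 CPM, the 8 highest were FAAP100 (r = 0.842), HS6ST1 (0.824), GLIS2 (0.808), MEST (0.795), TMEM259 (0.757), PYGB (0.752), PCDH1 (0.750) and GATD1 (0.740). The correlation with LRATD1 over all 15375 other tested genes had a median of 0.046 and a maximum of 0.862. HS6ST1, an enzyme that adds sulfate to heparan sulfate, had group means of 0.639, 1.42 and 2.79 CPM in control, dehydrated and rehydrated cortex and 7.11, 7.24 and 20.5 CPM in the corresponding medulla groups. FAAP100, a part of the Fanconi anaemia core complex, ran from 1.59 CPM in control cortex to 6.37 CPM in rehydrated medulla. GLIS2, a transcription factor gene of the kidney, ran from 5.94 to 37.9 CPM between the same groups. MEST differed from LRATD1 in the medulla, where its group means were 5.52, 6.03 and 5.59 CPM.

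After the means of all 6 groups were removed, the 8 highest genes were LRCH4 (r = 0.786), FAAP100 (0.763), MEST (0.731), SH3GL1 (0.731), CIAO3 (0.726), TMEM259 (0.722), SUMO3 (0.718) and GLIS2 (0.704), 4 of them shared with the first list. The 4 lowest were HSD17B12 (-0.653), LUC7L3 (-0.636), LSM8 (-0.632) and RTF1 (-0.616). These ranks leaned on cortex control replicate 3, which held the lowest cortex value of all 8 highest genes and the highest cortex value of all 4 lowest genes. Without that library, the correlations of the 8 highest genes fell to between 0.288 and 0.658, and those of the 4 lowest were between -0.535 and -0.353. None of these 8 was then among the 8 highest. In the first list, that library held the lowest cortex value of 7 of the 8 genes. Without it, the correlations of these 8 ran from 0.577 (MEST) to 0.875 (HS6ST1). Only 1 of the 8 then remained among the 8 highest, HS6ST1, with the highest correlation of all tested genes. These correlations are descriptions across libraries that share groups, depth and animals.

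**Figure D5:**
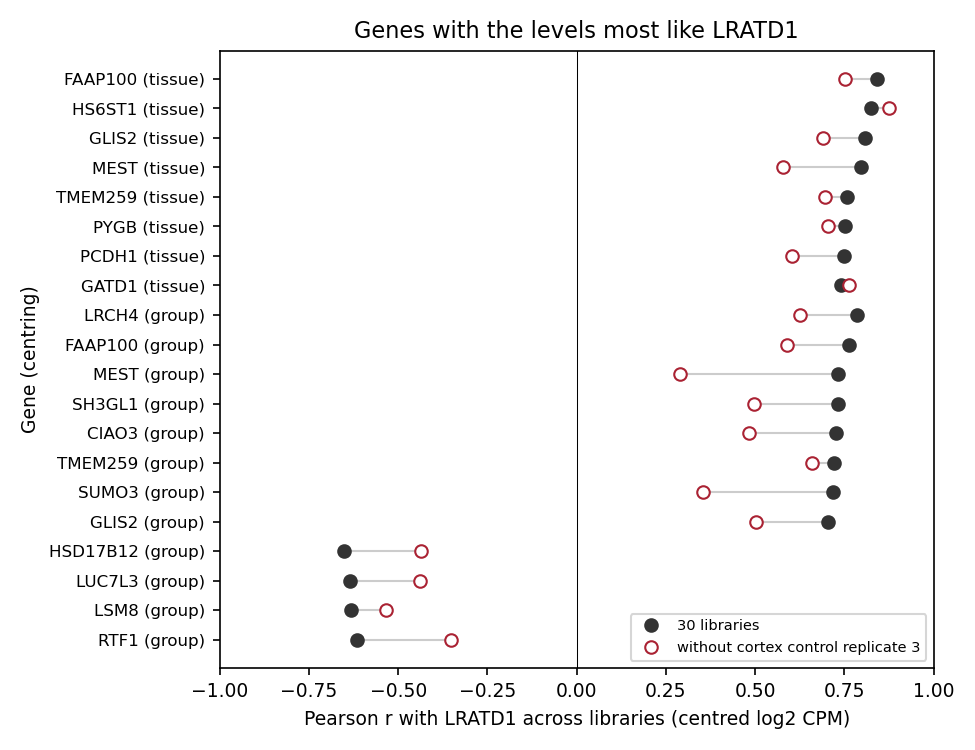
Pearson correlation with LRATD1 (horizontal axis) of the genes most like and least like it (vertical axis), after removal of the mean of the tissue or of the group, in all 30 libraries (filled) and without cortex control replicate 3 (open). HS6ST1 lies at 0.824 and 0.875, and MEST with group means removed at 0.731 and 0.288.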

How the data were processed

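Poly(A)-selected RNA of 30 kidney samples was sequenced on an Illumina NextSeq500. The authors trimmed reads with BBDuk, aligned them to CamDro2 and deposited counts of read pairs per gene, made with featureCounts 1.6.2 (Ensembl annotation, reverse-stranded), without normalization. The methods name STAR and the columns carry the name Rsubread, so the aligner is not settled. Depth was 12634346 to 20005136 counted pairs per library, and intervals and floors cover counting error only.

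Counts were filtered with filterByExpr (minimum count 10, minimum total 15; 15376 genes, LRATD1 among them), scaled by TMM and fitted in edgeR 4.0.16 (R 4.3.3) with 6 groups of tissue and condition, using quasi-likelihood tests with bias-adjusted deviances and Benjamini-Hochberg adjustment (threshold 0.05). The same fit without bias-adjusted deviances was added after the data were seen. Log2 CPM used a prior count of 2. The fit was also run on simulated medulla and cortex counts, drawn from the levels and spread it had estimated in these data. Exact permutation tests used all arrangements.

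The gene, the gene lists and the markers were chosen with earlier results of these data known. Genes named were LRATD1, its 5 nearest tested genes on each side, the paired members of the family and retinoid lists, the 8 highest and, after removal of group means, also the 4 lowest in correlation with LRATD1. Symbols were paired with 3827 identifiers, from the article's supplementary lists and, for 191, from RefSeq gene numbers (assembly mCamDro1.pat, names only). The labels name the individual, which paired the tissues of control and dehydrated camels and, less certainly because the column numbers differ, of rehydrated camels, although same-camel correlations over genes were low (means of 0.139, 0.093 and 0.049 in control, dehydrated and rehydrated camels). Alternatives were DESeq2 1.42.0, limma-voom (limma 3.58.1), DESeq2's size factors, other filters, fits of the compared groups alone, blocks and each library left out in turn. Protein and RT-qPCR data were not analysed here. A gene left out of the retinoid list is not reported here. Planned tests of the tissue difference in control and rehydrated camels and of the tissue difference in the dehydration response are not reported, because they use libraries that chose the gene.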

Additional observations from a re-analysis of the deposited data

How the results depend on the processing

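The tissue difference of LRATD1 in dehydrated camels kept its direction in every alternative and stayed under an adjusted p of 0.05 in every alternative fit. Exact permutation of the libraries between the tissues gave an unadjusted p = 0.00794 over 252 arrangements, which the separation of the tissues fixed. The exact permutation within camels, added after the data were seen, gave 1.55 in log2 CPM and p = 0.0625, the smallest it can give. With each library left out in turn, the log2 difference of medulla against cortex ranged from 2.54 to 3.37 in control, 1.25 to 1.62 in dehydrated and 1.10 to 1.54 in rehydrated camels, and the tissue difference in the dehydration response ranged from -1.97 to -1.14. Between conditions, the ranges were 1.39 to 2.22 (cortex) and 0.18 to 0.37 (medulla) for dehydration against control, 1.01 to 1.45 and 1.00 to 1.25 for rehydration against dehydration, and 2.61 to 3.44 and 1.25 to 1.52 for rehydration against control. Cortex control replicates 1 and 3 gave the extremes of the contrasts with control cortex. limma-voom gave larger differences from control cortex, at 2.29 for dehydration, 3.46 for rehydration and 3.54 for the medulla; the cause was not tested. With the camel as a replicate block, the tissue differences were 2.88 in control, 1.47 in dehydrated (adjusted p = 0.0055 in edgeR) and 1.35 in rehydrated camels, the last with a pairing that the column numbers do not share. Replicate numbers pair no camels between conditions (correlation of deviations -0.392 to 0.472), and the number as a block gave 2.87 and 1.40 for rehydration against control in cortex and medulla. Scaling by library totals alone moved the dehydrated medulla mean to 11.6 CPM. It also placed the control medulla mean above that of rehydrated cortex (9.28 against 6.70 CPM), as did DESeq2's size factors (8.02 against 8.00 CPM). The cortex and medulla relation turned to r = -0.138 with all 15 labelled camels, and was 0.191 with rehydrated camels paired by column number, with neither past the threshold. The lists of most similar genes kept 3 of 8 members under Spearman correlation in both centrings. The lowest counts, 0 to 29 pairs in control cortex, limit the precision of every fold against that group, and 5 camels per group limit the rest.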
